A study of Mus musculus with 8 samples.

Results

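Neutrophils release growth factors and cytokines besides their chemokines, and 10 genes for such factors are described here in spleen neutrophils with and without the chemokine receptor Cxcr2. The genes are Prok2, Hgf, Igf1, Osm, Tnf, Tnfsf13b, Tnfsf14, Il15, Il16 and Thbs1, which are 10 of the 55414 gene identifiers counted in every library. They were chosen as secreted factors outside the chemokine, IL-1 and TGF-beta families, with earlier results of these data known. Prok2 was selected on its large rise in the same libraries, so its values are a description and carry no test.

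Neutrophils (sorted after a selection for CD11b as cells with CD45, CD11b and Ly6G but without the macrophage protein F4/80) came from the spleens of 4 WT mice (strain FVB-WT) and 4 Cxcr2-/- mice (strain FVB-Cxcr2-/-). All mice were 10 weeks old, had the FVB background and lived under SOPF conditions, meaning that specific and opportunistic pathogens were absent. The Cxcr2-/- mice lacked the gene in every cell and from conception, so their neutrophils also developed in animals in which no other cell had the receptor. Total RNA of each mouse gave 1 library, and RNA was the only readout, so nothing here measures the proteins.

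Neutrophils mature in the bone marrow and leave it for the blood and the spleen, and Cxcr2 is the receptor through which chemokines such as Cxcl1 and Cxcl2 draw them out. Mature neutrophils also signal to other cells through secreted proteins. Prokineticin 2, the product of Prok2 and also called Bv8, is a small protein of myeloid cells that acts on G protein-coupled receptors and promotes vessel growth and cell mobilization. Hgf and Igf1 are growth factors for receptor tyrosine kinases, Osm is a cytokine of the IL-6 family, Tnf, Tnfsf13b (BAFF) and Tnfsf14 (LIGHT) belong to the TNF superfamily, Il15 and Il16 act on lymphocytes, and Thbs1 is a large glycoprotein of the extracellular matrix.

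The counts on genes summed to between 34220182 and 46233555 per WT library and between 37549648 and 43789253 per Cxcr2-/- library, and no pair of replicates within a genotype was close enough to be the same library. Cxcr2 RNA was at 1719 to 2252 CPM (counts on a gene per 1000000 counts of the normalized library) in WT and 12.9 to 20.7 CPM in Cxcr2-/- libraries. The 7 neutrophil markers summed to 30700 to 44400 CPM in WT and 67200 to 81100 CPM in Cxcr2-/- libraries, with 6 of the 7 higher and Csf3r lower in Cxcr2-/- neutrophils. By flow cytometry, the study reports more immature cells (low Ly6G) and fewer mature cells (with CD101) among Cxcr2-/- spleen neutrophils. It also reports more aged cells (low CD62L, high CXCR4) and fewer apoptotic or dead cells there. Ly6g, among the 6 higher markers, nevertheless had more RNA in every Cxcr2-/- library than in any WT library. Its mean rose from 226 ± 41.5 to 539 ± 50.5 CPM (log2 fold change 1.26 ± 0.14, edgeR adjusted p = 1.49e-05). The part of these differences in stage, age and survival in the values below was not tested. The 7 monocyte and macrophage markers summed to 444 to 541 CPM in WT and 202 to 298 CPM in Cxcr2-/- libraries, and the 5 B cell markers to 22.4 to 58.1 and 12.8 to 27.1 CPM. Csf1r, at a WT mean of 442 CPM, held most of the first sum. Of those 7, 2 were lower at an adjusted p under 0.05 (edgeR), and of the 5 B cell markers 4 were. Some other lists held higher genes at that threshold: 2 of 4 eosinophil markers, with 2 lower, 1 plasma cell marker, and 1 basophil and mast cell marker. Among dendritic cell, T cell and platelet markers, 2, 1 and 1 were lower. The part of RNA of other cells in the values below was not tested, and in bulk RNA fewer cells of a type cannot be told apart from less RNA per cell. Much of the transcriptome differed between the groups. Of 16778 genes tested with edgeR's quasi-likelihood test, 3969 were higher and 3526 lower in Cxcr2-/- neutrophils at a Benjamini-Hochberg adjusted p under 0.05, against 3076 higher and 4391 lower with upper-quartile scaling.

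Against that background, 8 of the 9 factors other than Prok2 were lower in Cxcr2-/- neutrophils, where 21.0% of all genes tested were lower, and 1 of the 9, Tnf, was higher, where 23.7% of all genes were higher. The changes of Hgf, Igf1, Osm, Tnfsf14, Il15 and Thbs1 were at least 1.5-fold, and those of Tnfsf13b, Il16 and Tnf were smaller. For 7 of the 9, the 4 libraries of each genotype were apart without overlap in CPM, as they were for 41.6% of all genes tested. The median log2 fold change (Cxcr2-/- over WT) was -1.04 over the 9 factors and 0.01 over all genes tested. Because the 9 were chosen with earlier results of these data known, these shares describe them and are no test of such factors as a group. All 10 factors passed the filter on low counts.

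**Figure D1:**
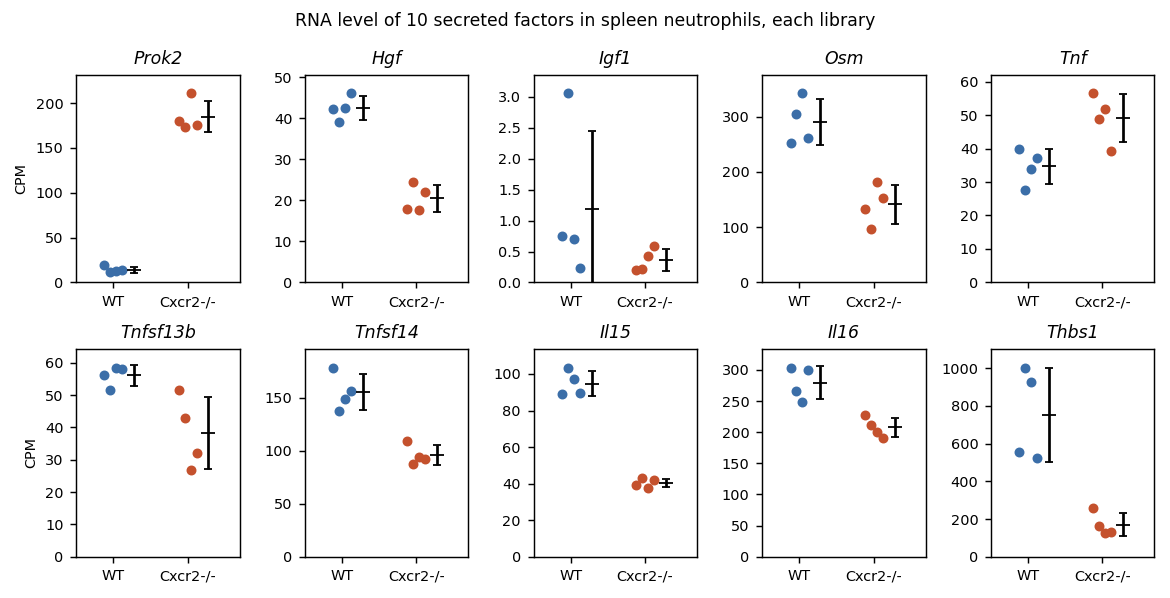
RNA level (CPM, linear axis from 0) of the 10 factors in each of the 4 WT and 4 Cxcr2-/- libraries, 1 point per mouse, with the mean and SD as a black mark to the right of each group (the lower bar of Igf1 in WT is cut at 0). The groups are apart for all factors except Igf1 and Tnf, and WT replicate 2 stands high for Igf1.

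Short sequences show what stands in front of some of these genes. The stretches are the 250 bases before an annotated start, from RefSeq on GRCm38.p6, in the direction of the gene and in lower case. Capitals mark the searched letters: TGANTCA (the AP-1 motif, N being any base), CACGTG (an E-box), TATAAA (the TATA box) and GGGCGG (a GC box), each on either strand. Prok2 and Tnf are shown because they were the only factors with more RNA in Cxcr2-/- neutrophils, and Tnfsf14 and Tnfsf13b because factors with less RNA held the same AP-1 letters.
Prok2 (chr6:99726393-99726642, minus strand): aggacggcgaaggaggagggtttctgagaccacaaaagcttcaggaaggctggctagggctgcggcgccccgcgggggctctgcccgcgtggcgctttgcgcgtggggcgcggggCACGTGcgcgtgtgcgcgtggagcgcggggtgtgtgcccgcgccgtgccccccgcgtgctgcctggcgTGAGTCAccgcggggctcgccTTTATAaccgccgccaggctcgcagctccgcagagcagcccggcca
Tnf (chr17:35202008-35202257, minus strand): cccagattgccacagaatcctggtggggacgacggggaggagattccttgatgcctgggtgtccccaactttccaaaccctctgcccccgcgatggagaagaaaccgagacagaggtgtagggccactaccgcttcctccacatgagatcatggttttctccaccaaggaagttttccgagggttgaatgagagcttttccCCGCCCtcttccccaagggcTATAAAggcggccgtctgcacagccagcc
Tnfsf14 (chr17:57194182-57194431, minus strand): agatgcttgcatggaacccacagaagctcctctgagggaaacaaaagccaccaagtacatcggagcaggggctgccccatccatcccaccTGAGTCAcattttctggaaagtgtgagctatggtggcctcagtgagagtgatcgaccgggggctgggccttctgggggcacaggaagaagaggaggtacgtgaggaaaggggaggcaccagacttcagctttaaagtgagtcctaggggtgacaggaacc
Tnfsf13b (chr8:10006383-10006632, plus strand, before a start inside the gene): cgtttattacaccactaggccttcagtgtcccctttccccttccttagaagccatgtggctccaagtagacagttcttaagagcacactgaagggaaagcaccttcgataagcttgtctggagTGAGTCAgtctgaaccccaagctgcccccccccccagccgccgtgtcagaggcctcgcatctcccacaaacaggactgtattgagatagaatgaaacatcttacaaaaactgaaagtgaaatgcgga

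TGANTCA stood in front of 5 of the 7 factors with a RefSeq window, counted over 11 windows in all, and in front of 7.82% of 27025 genes and in 6.75% of 32851 windows. Its first base lay 67 bases before the start of Prok2, 160 before that of Tnfsf14 and 127 before the second start of Tnfsf13b. Igf1 held it 37 bases before the only start with a window, and Il16 18 bases before 1 of its starts. These starts of Igf1 and Il16 lie inside the genes as annotated. The letters were thus in front of Prok2, which was higher in Cxcr2-/- neutrophils, and of 4 factors that were lower. Tnf had no match to TGANTCA, while it held TATAAA 29 bases and GGGCGG 49 bases before its start. TATAAA was found for 14.3% and GGGCGG for 35.4% of genes. Prok2 held TATAAA on the opposite strand 46 bases and CACGTG 135 bases before its start, and CACGTG was found for 6.86% of genes. The NF-kappaB motif was found in front of Il16 alone among the 7 factors and for 4.46% of genes. TGACGTCA (the CRE motif) and TTCNNNGAA (the STAT motif) were found in 0 of the 7, against 1.77% and 8.13% of genes. A match is a description of letters and not of binding.

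Prok2 (ENSMUSG00000030069, chr6:99711299-99726392 of GRCm38, minus strand) was at 19.4, 11.3, 12.2 and 13.6 CPM in the 4 WT libraries and at 180, 174, 211 and 176 CPM in the 4 Cxcr2-/- libraries. The lowest Cxcr2-/- library was far above the highest WT library. The WT mean was 14.1 ± 3.64 CPM and the Cxcr2-/- mean 185 ± 17.3 CPM (SD, n = 4 each), a ratio of 13.1. The log2 fold change was 3.71 ± 0.16 (SE), and it stayed between 3.59 and 3.91 when any 1 library was left out. By log2 fold change, Prok2 ranked 20 of the 16778 genes tested and 5 of the 4226 abundant genes (average log2 CPM not below 5). The counts behind these values were 458 to 877 in WT and 6277 to 8291 in Cxcr2-/- libraries.

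Its receptors, the G protein-coupled receptors Prokr1 and Prokr2, fell below the filter on low counts and were not tested. Prokr1 had at most 4 counts in any library. It was at 0, 0, 0 and 0.116 CPM in the WT libraries and at 0.0553 to 0.102 CPM in the Cxcr2-/- libraries. Prokr2 had at most 2 counts. Prok1, the other prokineticin, had 0 counts in all 8 libraries.

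Among the same 4226 abundant genes, the profile over the 8 libraries was nearest to that of Prok2 for Ggt1, a membrane enzyme that cleaves glutathione, at a root mean square difference of 0.233 in log2 CPM after centring each gene. Fam20c, a kinase of the secretory pathway, followed at 0.259. The next were the gene ENSMUSG00000118839, without a symbol in the annotation used, at 0.512, Npl, an enzyme that splits sialic acid, at 0.536, and Stfa2, a cysteine protease inhibitor, at 0.558. Ggt1 went from 5.71 ± 1.76 to 81.1 ± 8.59 CPM and Fam20c from 5.10 ± 0.708 to 81.4 ± 18.9 CPM between WT and Cxcr2-/- neutrophils. Stfa2 belongs to a family of near-identical copies, so its count is uncertain. Nearest here means that the difference between the groups and the spread within them were alike, and it was not tested. None of the other 9 factors was that near to Prok2, the closest being Tnf at 1.63.

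Of the growth factors, Hgf (chr5:16553495-16620152, plus strand) was at 42.3, 39.0, 42.4 and 46.0 CPM in WT and at 17.8, 24.5, 17.6 and 22.02 CPM in Cxcr2-/- libraries. Hgf is the ligand of Met and drives growth and movement of epithelial cells. The groups did not overlap, and the WT values lay within a narrow range. The mean fell from 42.4 ± 2.86 to 20.5 ± 3.35 CPM (log2 fold change -1.05 ± 0.12, adjusted p = 1.85e-05). On the same strand, the transcript Gm43489 covers 6.74% of the exon bases of Hgf.

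Igf1 (chr10:87858265-87937042, plus strand), a growth factor known as a product of macrophages in many tissues, was near the limit of detection in these cells. It had 34, 152, 26 and 8 counts in WT and 8, 8, 17 and 24 counts in Cxcr2-/- libraries, or 0.752, 3.06, 0.695 and 0.231 CPM against 0.202, 0.221, 0.432 and 0.583 CPM. The groups overlapped, and WT replicate 2 alone was far above all other libraries. The log2 fold change was -1.72 ± 0.66 with an adjusted p of 0.048, and without WT replicate 2 it was -0.66 with an adjusted p of 0.348. The test was also missed without WT replicate 1 (adjusted p = 0.0522), without Cxcr2-/- replicate 1 (0.108), replicate 2 (0.109) or replicate 3 (0.0696).

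The library with the most Igf1 RNA also had the most RNA of some macrophage markers. WT replicate 2 had the highest C1qa, C1qb and C1qc sum (17.2 CPM), Mrc1 (10.3 CPM) and Vcam1 (22.2 CPM) of the 8 libraries, against 0.231 to 4.94, 0.553 to 3.21 and 1.44 to 6.90 CPM in the other 7. Of the 7 monocyte and macrophage markers, Csf1r, by far the most abundant, was highest in WT replicate 1 (499 CPM, against 425 CPM in WT replicate 2), and so was the sum of all 7 (541 against 511 CPM). The sort excluded cells with F4/80 on their surface, the product of Adgre1, whose RNA was at 26.6 to 36.5 CPM in WT and 9.60 to 16.3 CPM in Cxcr2-/- libraries. With the RNA of non-neutrophil markers as a covariate, the log2 fold change of Igf1 was -0.60 (adjusted p = 0.388). The part of macrophage RNA in the Igf1 values of single libraries was not tested.

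**Figure D2:**
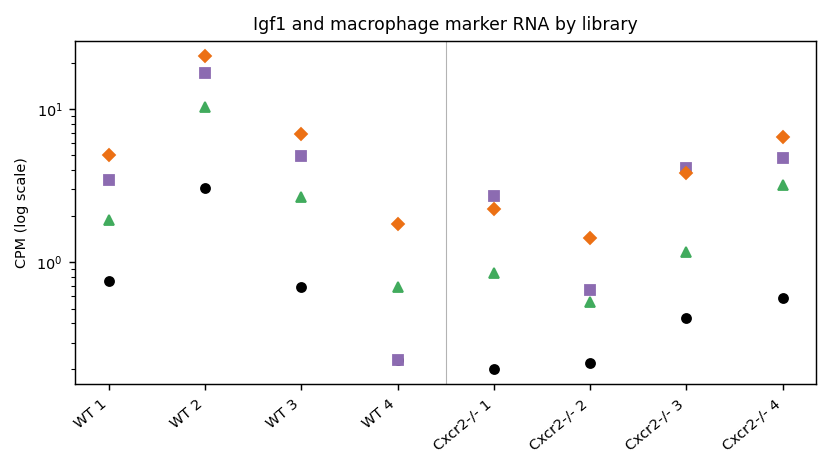
CPM (log scale) of Igf1 and of 5 of the 7 monocyte and macrophage markers (the sum of C1qa, C1qb and C1qc, and Mrc1 and Vcam1) in each of the 8 libraries, 1 symbol per library and quantity. All 4 quantities are highest in WT replicate 2, where Igf1 is at 3.06 CPM.

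The sole member of the IL-6 family among the 10, Osm (chr11:4236420-4241026, plus strand), was at 252, 304, 342 and 261 CPM in WT and at 132, 97.4, 182 and 153 CPM in Cxcr2-/- libraries. Oncostatin M acts on stromal, endothelial and liver cells, and neutrophils are a known source of it. Every Cxcr2-/- library lay below every WT library. On average Osm fell from 290 ± 41.7 to 141 ± 35.8 CPM (log2 fold change -1.04 ± 0.17, adjusted p = 0.00033).

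Of the TNF superfamily, Tnf moved up while Tnfsf13b and Tnfsf14 moved down. Tnf (chr17:35199381-35202007, minus strand), the inflammatory cytokine of the family, was at 39.8, 27.6, 33.97 and 37.3 CPM in WT and at 56.5, 48.7, 51.9 and 39.3 CPM in Cxcr2-/- libraries. The groups overlapped, since Cxcr2-/- replicate 4 lay just under WT replicate 1, while the other Cxcr2-/- libraries lay above all WT libraries. The mean rose from 34.7 ± 5.30 to 49.1 ± 7.28 CPM (log2 fold change 0.50 ± 0.13, adjusted p = 0.00831), and the adjusted p reached 0.0308 without WT replicate 3.

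Tnfsf13b (chr8:10006467-10039072, plus strand), which keeps B cells alive, was at 56.1, 51.59, 58.5 and 58.1 CPM in WT and at 51.57, 42.8, 26.7 and 32.2 CPM in Cxcr2-/- libraries. The groups only just failed to overlap, because WT replicate 2 and Cxcr2-/- replicate 1 were almost equal, and the Cxcr2-/- libraries were spread widely. The mean fell from 56.1 ± 3.17 to 38.3 ± 11.1 CPM (log2 fold change -0.55 ± 0.17, adjusted p = 0.0169).

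Tnfsf14 (chr17:57189492-57194177, minus strand), a ligand that activates T cells and stromal cells, was at 178, 138, 149 and 156 CPM in WT and at 109, 87.6, 94.5 and 92.7 CPM in Cxcr2-/- libraries. The groups were well apart. Its mean decreased from 155 ± 17.1 to 96.0 ± 9.29 CPM (log2 fold change -0.70 ± 0.10, adjusted p = 0.000172).

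Both interleukins were lower in Cxcr2-/- neutrophils. Il15 (chr8:82331632-82403222, minus strand), a survival factor of NK cells and memory T cells, was at 88.8, 103, 97.3 and 89.4 CPM in WT and at 39.1, 42.9, 37.8 and 41.8 CPM in Cxcr2-/- libraries. The libraries of each group lay close together and far from those of the other. The mean fell from 94.7 ± 6.99 to 40.4 ± 2.35 CPM (log2 fold change -1.23 ± 0.09, adjusted p = 5.58e-07), the smallest adjusted p of the 9 factors tested.

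Il16 (chr7:83642825-83745726, minus strand) is made as a precursor, and its released end attracts CD4+ cells. It was at 303, 266, 248 and 300 CPM in WT and at 227, 211, 201 and 191 CPM in Cxcr2-/- libraries. The groups did not overlap, but the lowest WT library was near the highest Cxcr2-/- library. Mean Il16 RNA fell from 279 ± 26.8 to 208 ± 15.4 CPM (log2 fold change -0.43 ± 0.10, adjusted p = 0.00376). On the opposite strand, Stard5 shares 15.3% of the exon bases of Il16, and the strand setting of the counting is not given in the sources used here, so reads of the pair could not be told apart.

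Thbs1 (chr2:118111876-118127133, plus strand) had the largest change among the 9 factors tested. It encodes thrombospondin 1, which binds Cd47 and Cd36 and restrains vessel growth. The WT libraries were at 553, 1002, 926 and 525 CPM and the Cxcr2-/- libraries at 259, 163, 125 and 133 CPM. The WT libraries formed a high and a low pair, and all were above every Cxcr2-/- library. Mean Thbs1 RNA fell from 752 ± 248 to 170 ± 61.8 CPM (log2 fold change -2.14 ± 0.26, adjusted p = 3.78e-05). Thbs1 is also a known platelet product. The platelet genes Pf4 and Ppbp were at most at 0.0758 and 0.152 CPM in any library. The 6 platelet and megakaryocyte markers summed to 5.99 to 7.99 CPM in WT and 4.07 to 6.65 CPM in Cxcr2-/- libraries. The part of platelet RNA in the Thbs1 values was not tested. The lincRNA Gm29233 on the opposite strand shares 3.42% of the exon bases of Thbs1.

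**Figure D3:**
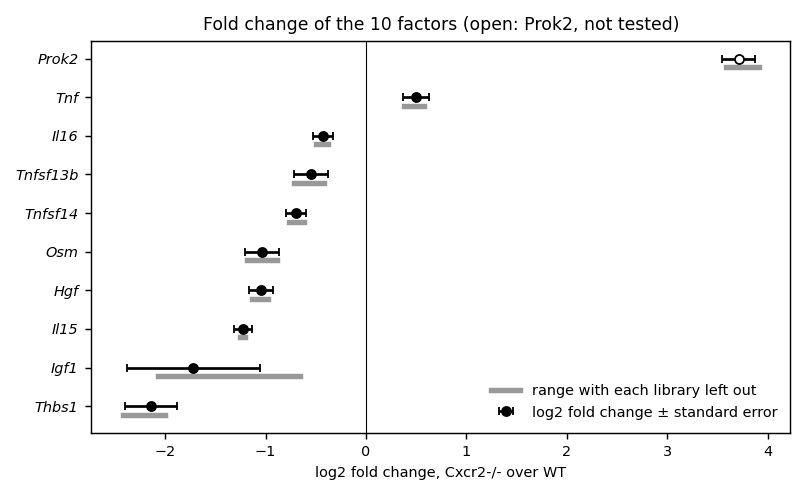
Log2 fold change (Cxcr2-/- over WT) of the 10 factors with its standard error as a black bar, and the range when each library was left out in turn as a grey bar, with Prok2 drawn open because it was not tested. Prok2 at 3.71 and Tnf at 0.50 lie right of 0, the other 8 lie left of it, and the grey bar of Igf1 reaches from -2.07 to -0.66.

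Levels of different genes were compared per kb of merged exons. In WT neutrophils the order was Osm (128 ± 18.4 CPM per kb), Thbs1 (124), Tnfsf14 (84.1), Il15 (41.9), Il16 (35.5), Tnf (21.1), Tnfsf13b (8.16), Prok2 (7.37), Hgf (5.91) and Igf1 (0.119). Osm and Thbs1, Thbs1 and Tnfsf14, Tnfsf13b and Prok2, and Prok2 and Hgf overlapped as neighbours in that order. In Cxcr2-/- neutrophils Prok2 stood at the head with 96.5 CPM per kb, and Osm (62.2), Tnfsf14 (52.0), Tnf (29.9), Thbs1 (28), Il16 (26.4), Il15 (17.9), Tnfsf13b (5.58), Hgf (2.85) and Igf1 (0.0363) followed. Here Osm overlapped Tnfsf14, Tnf overlapped Thbs1, and Thbs1 overlapped Il16. Prok2 thus went from the eighth to the first place among the 10, and Thbs1 from the second to the fifth.

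**Figure D4:**
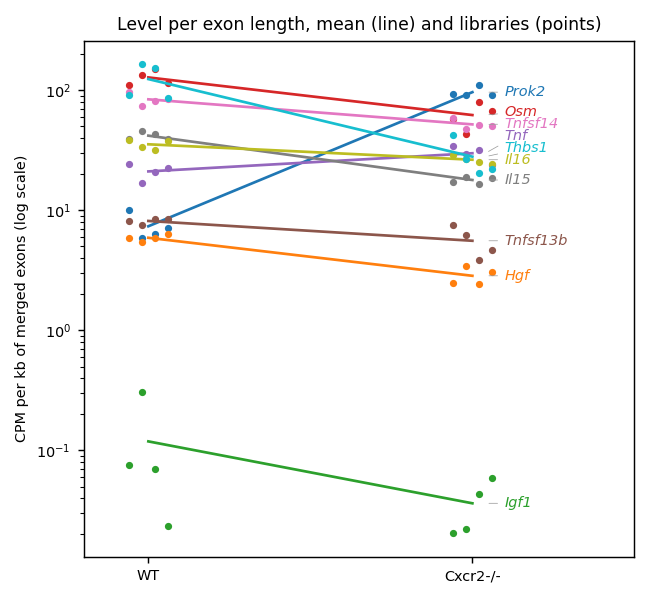
Level of the 10 factors in CPM per kb of merged exons (log axis) in WT and Cxcr2-/- neutrophils, with the mean of 4 libraries joined by a line and the libraries as points. The line of Prok2 rises from 7.37 to 96.5 across those of the other factors, that of Tnf rises slightly, and the other 8 slope down.

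In their profiles over the 8 libraries, some of the factors were close to each other. Tnfsf14 and Il16 differed by a root mean square of 0.16 and Hgf and Il15 by 0.17 in centred log2 CPM. Tnfsf13b was 0.24 from Il16 and Osm 0.30 from Il15, while Thbs1, which fell further, was 0.60 from Il15. Tnf, which moved the other way, was 0.49 from its nearest neighbour, Il16. Close here again means a like difference between the groups and a like spread within them. These distances were not tested and were not set against those of other genes.

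The 3′ untranslated ends were searched for TTATTTATT, the core of the AU-rich element known to shorten the life of cytokine transcripts. In the longest such end of each gene in GENCODE M21 it was found 5 times in Tnf and once each in Tnfsf13b and Thbs1, and in 956 of 12055 genes tested (7.93%). The first site in each is shown with its flanking bases and the motif in capitals, because these are the only 3 of the 10 factors that hold it.
Tnf: tgcacttaTTATTTATTatttattt
Tnfsf13b: tggcccatTTATTTATTgaattgtt
Thbs1: aatacagaTTATTTATTaaccctgt
The capitals start at base 438 of the 764 bases in Tnf, at base 1643 of 3631 in Tnfsf13b and at base 1136 of 2104 in Thbs1. Of the 3, Tnf was higher and Tnfsf13b and Thbs1 were lower in Cxcr2-/- neutrophils, and Osm, Il15 and Hgf, which were lower as well, held no copy. The shorter ATTTA within that motif was also counted per kb. It stood at 10.5 in Tnf, 6.04 in Hgf, 5.9 in Osm and 3.55 in Il15. Prok2, Igf1 and Thbs1 had 2.85 each, Tnfsf13b 1.65, Tnfsf14 0.981 and Il16 0. Any part of these letters in the RNA levels was not tested.

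The receptors, binding proteins and processing enzymes of the 10 factors moved both ways. Of 41 such genes, 32 passed the filter on low counts, and 8 of these were higher, 10 lower and 14 did not pass the test, with a median log2 fold change of -0.01. The higher genes were Met, Plau, Igfbp4, Igfbp6, Tnfrsf13b, Tnfrsf14, Il2rg and Cd47, and the lower ones St14, Igf1r, Lifr, Tnfrsf1a, Tnfrsf1b, Adam17, Tnfrsf13c, Furin, Cd4 and Sdc4. Of all genes tested, 23.7% were higher and 21.0% lower.

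Around Hgf, the urokinase gene Plau, whose product can activate the Hgf precursor, rose from 25.1 ± 3.41 to 69.3 ± 14.7 CPM (log2 fold change 1.47 ± 0.15, adjusted p = 8.79e-06). Met itself rose from 1.40 ± 0.218 to 2.82 ± 0.645 CPM (log2 fold change 1.01 ± 0.23, adjusted p = 0.00321), and St14, another activating protease, fell from 2.50 ± 1.02 to 1.06 ± 0.321 CPM (log2 fold change -1.23 ± 0.31, adjusted p = 0.00613). Ligand and receptor thus moved in opposite directions, with Met at a low level in both groups.

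The receptor of Igf1 was abundant, unlike its ligand. Igf1r was at 926, 1098, 969 and 1165 CPM in WT and at 670, 595, 571 and 566 CPM in Cxcr2-/- libraries. The groups were apart, and the mean fell from 1040 ± 111 to 601 ± 48.0 CPM (log2 fold change -0.79 ± 0.11, adjusted p = 9.47e-05). The IGF-binding proteins Igfbp4 (22.8 ± 2.32 to 48.5 ± 10.8 CPM, log2 fold change 1.09 ± 0.14, adjusted p = 6.32e-05) and Igfbp6 (8.66 ± 4.45 to 32.7 ± 14.5 CPM, log2 fold change 1.92 ± 0.37, adjusted p = 0.00102) rose.

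Around Osm, the receptor gene Lifr fell from 10.1 ± 1.17 to 3.99 ± 1.03 CPM (log2 fold change -1.34 ± 0.19, adjusted p = 0.000104). Il6st was at 9.82 ± 7.18 and 12.1 ± 5.55 CPM (adjusted p = 0.628), and Osmr lay below the filter.

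Around Tnf, which rose, the receptors and the shedding enzyme fell. Tnfrsf1b was at 358, 401, 288 and 354 CPM in WT and at 192, 162, 204 and 206 CPM in Cxcr2-/- libraries, with no overlap (log2 fold change -0.87 ± 0.12, adjusted p = 8.09e-05). Adam17, the protease that releases Tnf from the cell surface, fell from 155 ± 5.85 to 120 ± 6.03 CPM (log2 fold change -0.37 ± 0.08, adjusted p = 0.00267), while its partner Rhbdf2 was at 224 CPM in both groups (adjusted p = 0.998). Tnfrsf1a was at 539 ± 34.1 and 435 ± 56.3 CPM with overlapping groups (log2 fold change -0.31 ± 0.11, adjusted p = 0.0345). That call was lost without WT replicate 1 (adjusted p = 0.0908), WT replicate 4 (0.0856), Cxcr2-/- replicate 2 (0.0888), replicate 3 (0.0739) or replicate 4 (0.0787).

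The receptors of BAFF are best known from B cells. Tnfrsf13b (TACI) rose from 5.73 ± 1.15 to 15.2 ± 2.85 CPM (log2 fold change 1.40 ± 0.18, adjusted p = 4.47e-05), and Tnfrsf13c, the BAFF receptor of B cells, fell from 2.12 ± 0.721 to 0.743 ± 0.407 CPM (log2 fold change -1.50 ± 0.40, adjusted p = 0.00804). The B cell markers were lower in Cxcr2-/- libraries as well (4 of 5), and their part in the value of Tnfrsf13c was not tested. Furin, which cleaves BAFF from the membrane, was at 568 ± 93.6 and 430 ± 53.2 CPM (log2 fold change -0.40 ± 0.13, adjusted p = 0.0268), and that call was lost without WT replicate 1 (adjusted p = 0.0789), WT replicate 4 (0.0951), Cxcr2-/- replicate 2 (0.0605), replicate 3 (0.0607) or replicate 4 (0.062). For Tnfsf14, Tnfrsf14 rose from 34.5 ± 2.93 to 48.3 ± 6.92 CPM (log2 fold change 0.49 ± 0.11, adjusted p = 0.00339) and Ltbr was at 89.7 ± 6.36 and 91.0 ± 12.6 CPM (adjusted p = 0.883).

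For Il15, the receptor chain Il15ra was at 6.32 ± 0.475 and 7.01 ± 1.18 CPM (adjusted p = 0.452), and the common chain Il2rg at 10.7 ± 1.59 and 15.4 ± 3.05 CPM (log2 fold change 0.52 ± 0.16, adjusted p = 0.0164), a call that was lost without Cxcr2-/- replicate 3 (0.0572) and with upper-quartile (0.0524) or total-count scaling (0.0582). For Il16, its receptor Cd4 was at 6.16 ± 5.52 and 1.34 ± 0.564 CPM with overlapping groups (log2 fold change -2.20 ± 0.57, adjusted p = 0.0075). Cd4 is also a gene of T cells, macrophages and dendritic cells, and its adjusted p was 0.0602 with the marker RNA of other cell types as a covariate.

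For Thbs1, the receptor Cd47, known as the signal that stops uptake by macrophages, was at 421, 390, 384 and 405 CPM in WT and at 619, 688, 604 and 600 CPM in Cxcr2-/- libraries. The groups did not overlap, and the mean rose from 400 ± 16.4 to 628 ± 41.1 CPM (log2 fold change 0.65 ± 0.09, adjusted p = 0.00011), opposite to its ligand. Sdc4 fell from 1.64 ± 0.554 to 0.452 ± 0.274 CPM (log2 fold change -1.85 ± 0.44, adjusted p = 0.0045). Cd36, Itgav, Itgb3, Lrp1 and Calr did not pass the test.

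**Figure D5:**
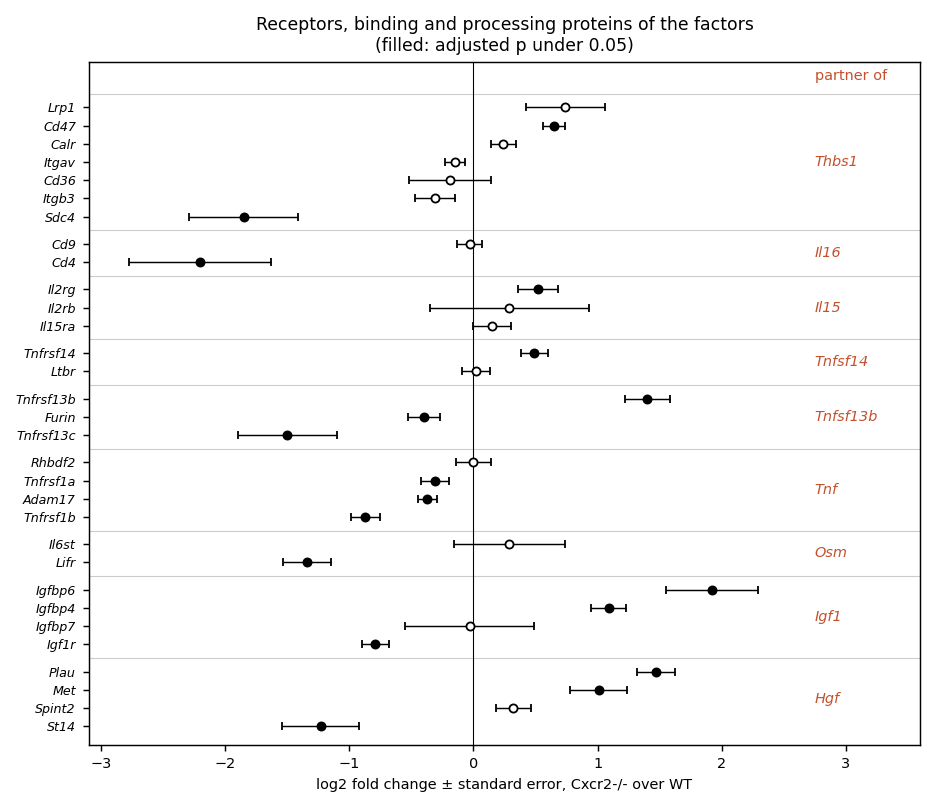
Log2 fold change (Cxcr2-/- over WT) with its standard error for receptors, binding proteins and processing enzymes that were tested, grouped by the factor they belong to, filled where the adjusted p was under 0.05. There are 8 filled points right of 0 and 10 left of it, and each group with more than 3 tested genes, except that of Tnf, has filled points on both sides.

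Most of the other growth factors and cytokines had too few counts to be tested. Of 55 further genes, 37 fell below the filter, 11 of them with 0 counts in all libraries, among them Il6, Il2 and Il17a, and 14 of the 15 other TNF superfamily ligands were among the 37. Of the 18 tested, 4 were higher, 5 lower and 9 did not pass, where 23.7% of all genes tested were higher and 21.0% lower. The only further TNF superfamily ligand tested, Ltb, was at 250 ± 44.0 and 205 ± 24.3 CPM (adjusted p = 0.0881).

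The largest fall of an abundant gene in that list was that of Csf1, the growth factor of macrophages. It was at 397, 523, 339 and 536 CPM in WT and at 108, 73.6, 111 and 124 CPM in Cxcr2-/- libraries. The groups were far apart, and the mean fell from 449 ± 96.1 to 104 ± 21.5 CPM (log2 fold change -2.11 ± 0.18, adjusted p = 2.19e-06). Vegfa, which promotes vessel growth as Prok2 does, fell from 75.5 ± 6.52 to 55.9 ± 5.67 CPM (log2 fold change -0.43 ± 0.10, adjusted p = 0.00333). Hbegf, Clcf1 and Thbs3 fell too, with log2 fold changes of -3.00 ± 0.57, -1.88 ± 0.27 and -1.63 ± 0.33 (adjusted p = 0.000966, 0.000135 and 0.00143), all from levels under 4 CPM in the mean.

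Lgals3, a secreted lectin, was at 353, 252, 329 and 282 CPM in WT and at 743, 670, 656 and 574 CPM in Cxcr2-/- libraries. It rose without overlap from 304 ± 45.5 to 661 ± 69.1 CPM (log2 fold change 1.12 ± 0.13, adjusted p = 1.81e-05). The subunit Il27 of interleukin 27 rose from 7.37 ± 0.479 to 14.0 ± 1.60 CPM (log2 fold change 0.93 ± 0.12, adjusted p = 7.38e-05), and Mif from 3.16 ± 0.467 to 5.61 ± 0.701 CPM (log2 fold change 0.83 ± 0.17, adjusted p = 0.00187). Il12a, a subunit of interleukin 12, was at 0.369 ± 0.0646 and 1.29 ± 0.851 CPM with overlapping groups (log2 fold change 1.79 ± 0.51, adjusted p = 0.0121).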

How the data were processed

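RNAseq of sorted spleen neutrophils gave 8 libraries, 4 WT and 4 Cxcr2-/-, grouped by the sample labels. As the study describes, the authors depleted ribosomal RNA, prepared stranded paired-end libraries, aligned the trimmed reads to mm10 with STAR and counted them with HTSeq. They deposited raw counts per Ensembl gene identifier, and the counting program's own totals were left out of library sizes. GENCODE M21 (GRCm38), whose symbols and coordinates were used, holds 52133 of the 55414 identifiers, and only 35 carried the same version number, so the counting annotation was another release. Identifiers without an entry held 1.42% of the counts. Which 10 factors and which lists of related genes to describe was chosen with earlier results of these data known.

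Counts were compared in R 4.3.3 with edgeR 4.0.16 (quasi-likelihood test, TMM, filterByExpr, no covariate, all 8 libraries) and Benjamini-Hochberg adjustment over the 16778 genes tested. A gene passed with an adjusted p under 0.05. CPM used TMM library sizes, values are mean ± SD, and a log2 fold change above 0 means more RNA in Cxcr2-/- cells (± SE). P-values set the difference between the groups against the spread between mice. The biological coefficient of variation was 0.202, and the steps were tested on simulated data. Named genes were the 10 factors, Cxcr2, genes of the lists of partners and relatives that passed the filter, cell type markers, and the 5 genes with the profile nearest to Prok2. Genes of those lists below the filter (Prokr1, Prokr2, Prok1, Osmr, Il6, Il2 and Il17a) were named after their values were seen. Alternatives were DESeq2 1.42.0 (the study's tool), RLE, upper-quartile and total-count scaling, no filter, a minimum of 10 counts in every library, a replicate block, a covariate of non-neutrophil marker RNA (mean log2 of CPM plus 1), a 1.5-fold threshold, and each library left out. Same-numbered libraries did not deviate together in all 4 pairs, so no pairing was used. A gene of the partner list enters the counts over that list and is not reported here.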

Additional observations from a re-analysis of the deposited data

Results flagged for a closer look

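Within the Cxcr2-/- group, 1 library stood apart for Prok2. Replicate 3 was at 211 CPM, while the other 3 lay between 174 and 180 CPM, a gap of 0.844 of the whole range of the group. This passed Dixon's criterion at the 95% level (0.829 for 4 libraries). It was the only one of 20 groups of values examined (10 factors in 2 genotypes), and chance alone gives about 1 in 20.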

How the results depend on the processing

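With a fold of at least 1.5 required as well, 2628 genes in place of 3969 were higher over all genes, and 0 in place of 1 of the 9 tested factors. Hgf, Osm, Tnf, Tnfsf13b, Tnfsf14, Il15, Il16 and Thbs1 kept their direction and an adjusted p under 0.05 under every alternative run. The log2 fold change of Prok2 was 3.59 to 3.91 over the alternatives, which is a description, since Prok2 was selected on its rise. Igf1 kept its direction but missed the test with the replicate block (log2 fold change -1.29, adjusted p = 0.179) and the marker covariate (-0.60, 0.388). Without 1 library it ranged from -2.07 to -0.66 and passed in 3 of 8 fits. It could not be tested with at least 10 counts in every library. With the replicate block, Cd4 missed the test too (log2 fold change -1.78, adjusted p = 0.054), and 7 of the 9 factors were lower and 3719 genes higher and 3349 lower. Same-numbered deviations correlated at 0.15, -0.187, 0.245 and -0.308, and 2 of 4 WT libraries correlated best with their own number. Upper-quartile scaling moved the median log2 fold change of all genes from 0.013 to -0.106, by which Tnf went from 0.50 to 0.38. Genes below the filter, such as Prokr1, had too few counts to be tested, and low genes such as Igf1 rest on 8 to 152 counts.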
